A study of Triticum aestivum and Triticum urartu and Aegilops speltoides with 12 samples.

Results

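Of 56855 array features, 98 were high in Aegilops tauschii alone. On the log2 scale, with values under 7 set to 7, the mean of the 2 arrays of each plant was taken, and the 6 means were sorted. A feature was a member where the widest gap between neighbouring means was at least 2 and where Ae. tauschii alone lay above that gap. The rule would have kept the 200 widest gaps, but only 98 features met it, so all of them are described. The gap was 2.35 at the median and 4.59 at the widest, and 59 of the 98 members had a gap under 2.5. With arrays scaled by cyclic loess 64 features met the rule, 59 of them among the 98, and with arrays scaled to a random control feature 52 did, 46 of them among the 98. Because these values chose the members, the level in Ae. tauschii against any other plant is a description here, with no test.

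Transcripts were measured with 12 Cy3-labelled NimbleGen arrays, in 6 kinds of plant with 2 arrays each, with total RNA from 2 whole seedlings on each array. The plants were the diploid Ae. tauschii (labelled D), a hexaploid line with the 2BS.2RL wheat-rye translocation, hexaploid wheat (labelled ABD), and the diploids Triticum urartu (A), Ae. speltoides (B) and rye, Secale cereale. In the 2BS.2RL line, the long arm of chromosome 2B is replaced by that of rye chromosome 2R. All seedlings were taken at day 10, leaves and roots together, and the labels give no treatment. They name no accession or cultivar, so how close these Ae. tauschii plants are to the donor of the wheat D genome is not known from them. The series design calls the 2 arrays of a plant independent biological replicates. By the rule used here, 2 features were high in the 2BS.2RL line and rye alone and 11 in hexaploid wheat and rye alone, so the line labelled as carrying the rye arm shared fewer such features with rye than hexaploid wheat did, which goes against those labels. No sample was relabelled, and a direction given between these hexaploids depends on the labels being right. Replicate arrays correlated at r = 0.968 to 0.990 over all features.

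Bread wheat is an allohexaploid. It arose when a tetraploid wheat carrying the A and B genomes crossed with Ae. tauschii, a wild goat grass that gave the D genome. Most genes are therefore present as 3 homoeologues, 1 from each genome, and after such a merger a homoeologue may be kept, lowered, silenced or lost. A transcript of a diploid donor that is weak in the hexaploid is 1 possible trace of this. An oligonucleotide array reads it only through probes that may match some species better than others. How well the probes fit each plant was not tested.

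The features carry IDs and no gene names, and 0 of them matched the gene table used here, so no function, sequence or chromosome is given. The prefix of an ID was read as the species whose sequence the probes were designed on. All 98 members had 2 probes in the raw table. By prefix, 91 members (92.9%) came from Triticum aestivum sequences, 5 (5.1%) from T. monococcum and 2 (2.04%) from Ae. speltoides, against 75.1%, 10.1% and 4.38% of all features. None came from the 228 features with prefixes of Ae. tauschii or its older name Ae. squarrosa, 15 of which had a gap of at least 2 in some pattern. Each of these prefixes makes up 0.201% of all features, so their absence from 98 members says little. None came from the 5731 rye features (10.1% of all features) either. Probes designed on bread wheat sequences thus made up most of a set in which bread wheat itself was not among the high plants.

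In Ae. tauschii the members were of ordinary brightness. Their level there had a median of 10.66 (log2 intensity, lowest 9.12, highest 13.97), against 10.70 for all features on the same arrays. In the 2BS.2RL line the median was 7.92, in hexaploid wheat 7.94, in T. urartu 6.53, in Ae. speltoides 6.79 and in rye 6.92. As most values in the last 3 plants lie at background, their levels relative to Ae. tauschii are upper limits, with each array set to at least the level of its random control feature. On the linear scale the median was then 15.6% of the Ae. tauschii level in the 2BS.2RL line, 16.4% in hexaploid wheat, at most 10.3% in T. urartu, at most 11.4% in Ae. speltoides and at most 13% in rye.

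**Figure D1:**
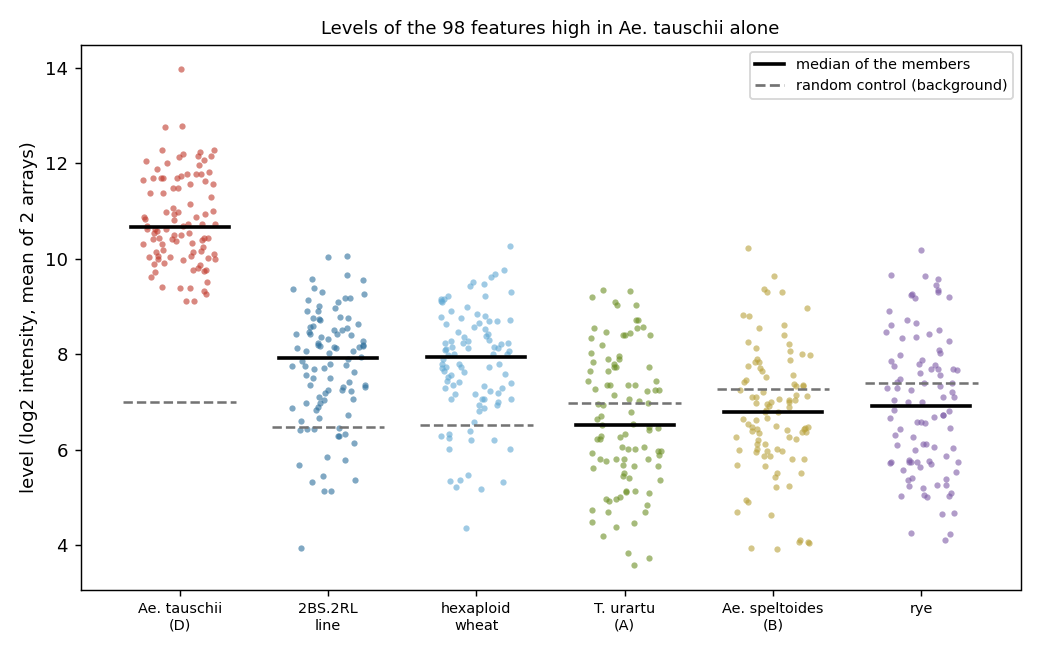
Level of each of the 98 members in the 6 plants (log2 intensity, mean of 2 arrays, 1 point a member), with the median of the members as a solid line and the random control of that plant as a dashed line. The medians of the 2BS.2RL line (7.92) and hexaploid wheat (7.94) lie above their random control, and those of T. urartu (6.53), Ae. speltoides (6.79) and rye (6.92) below theirs.

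The random control feature of each array served as the measure of background. It averaged 7.01 in Ae. tauschii, 6.48 in the 2BS.2RL line, 6.53 in hexaploid wheat, 6.99 in T. urartu, 7.27 in Ae. speltoides and 7.41 in rye. It is 1 summarised value and no true detection limit. In the 2BS.2RL line 78 of the 98 members lay above it on both arrays, in hexaploid wheat 82, in T. urartu 39, in Ae. speltoides 26 and in rye 32. Of all features, 91.1%, 90.9%, 87.4%, 85.3% and 84.4% did so in the same plants. On all 4 hexaploid arrays 76 members were above it, against 90.2% of all features, and 9 were at or below it, against 6.12%. At least 1 log2 above it on both arrays were 58 members in the 2BS.2RL line and 56 in hexaploid wheat, 17 in T. urartu, 10 in Ae. speltoides and 12 in rye. The shares of all features at this higher cut were not taken. Most members (77.6%) thus read above the random control on all 4 hexaploid arrays, a smaller share than the 90.2% of all features. The name "high in Ae. tauschii alone" describes them better than "not in the hexaploids".

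The members fell into several kinds by where signal was left. In 7 members all 10 arrays of the other 5 plants lay at or below background, with levels of 9.40 to 11.01 in Ae. tauschii. In 19 members all 10 arrays lay above background (80.1% of all features did so), with a median of 9.35 in the highest of the other plants and 12.14 in Ae. tauschii. The other 72 were mixed. T. urartu, Ae. speltoides and rye were all at background in 36 members, and in 22 of these the 4 hexaploid arrays were above it. The shares of all features that match the counts of 7, 36 and 22 were not taken. The random control was also lower in the hexaploids than in these diploids. The same intensity can thus count as background in a diploid and as above it in a hexaploid.

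Taestivum_ESTC035675 was among the 7 members at background everywhere else. It read 10.98 and 11.00 on the Ae. tauschii arrays, 5.05 and 5.72 in the 2BS.2RL line, 4.25 and 6.14 in hexaploid wheat, 5.44 and 5.80 in T. urartu, 6.06 and 6.38 in Ae. speltoides and 4.66 and 4.63 in rye. Ae. tauschii was at least 22.7-fold above the 2BS.2RL line and at least 22.1-fold above hexaploid wheat. These folds are lower bounds, taken against the higher of the random control and the feature's own value on each array. Taestivum_ESTC003420 was of the same kind, with 11.06 and 10.96 in Ae. tauschii and 5.18 to 6.84 on the other 10 arrays. Taestivum_ESTC022282 had 11.03 and 10.86 in Ae. tauschii and 5.47 to 7.09 on the others. In these 3 members no array outside Ae. tauschii rose above its own background.

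Taestivum_ESTC008623 had the widest gap and the highest level, and it was not at background anywhere. It read 13.86 and 14.08 in Ae. tauschii, 8.66 and 9.37 in the 2BS.2RL line, 8.60 and 9.38 in hexaploid wheat, 8.77 and 9.30 in T. urartu, 8.72 and 10.03 in Ae. speltoides and 9.08 and 9.40 in rye. The other 5 plants overlapped one another, and Ae. tauschii was 24.2-fold to 31.6-fold above them. Taestivum_ESTC009784, second in level, read 12.85 and 12.73 in Ae. tauschii against 9.16 to 10.52 on the other arrays. Both show an excess in Ae. tauschii over a signal seen in every plant.

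The member from T. monococcum sequences with the widest gap, Tmonococcum_ESTC004779, read 11.79 and 11.61 in Ae. tauschii. It read 6.42 and 6.15 in the 2BS.2RL line and 6.08 and 6.44 in hexaploid wheat, at background on all 4 arrays. T. urartu had 7.12 and 7.20, Ae. speltoides 7.44 and 7.62 and rye 7.58 and 7.40. Here the hexaploids read lowest, but these diploids lay close to their own random controls, which were higher than those of the hexaploids. The member from Ae. speltoides sequences with the widest gap, Aspeltoides_ESTC002014, read 9.90 and 9.91 in Ae. tauschii. In Ae. speltoides itself, whose sequence its probes came from, it was at background with 6.56 and 6.35, the lowest of the 6 plants. It read 7.34 and 7.16 in the 2BS.2RL line, 7.43 and 7.75 in hexaploid wheat, 7.49 and 7.82 in T. urartu and 7.90 and 7.49 in rye.

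**Figure D2:**
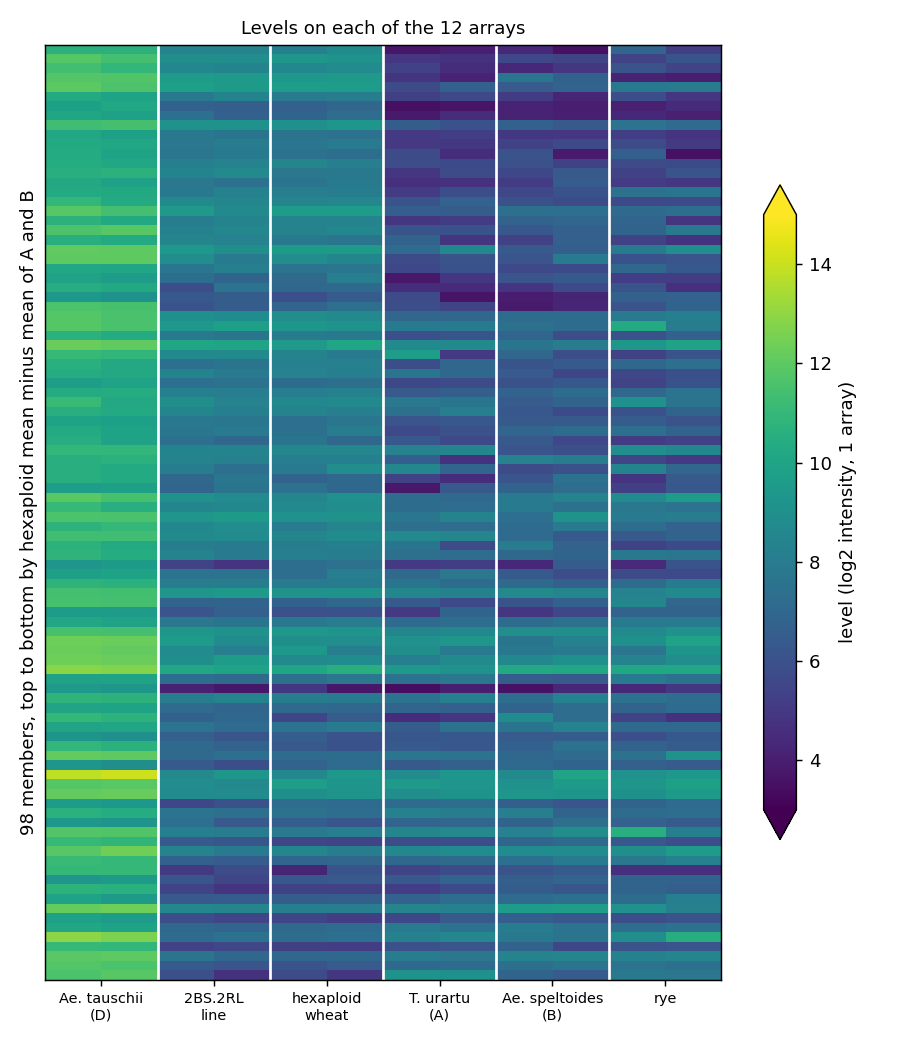
Level of the 98 members (rows) on each of the 12 arrays (columns, 2 for each plant), as log2 intensity on a colour scale. Rows run from the member with the hexaploids furthest above T. urartu and Ae. speltoides to the one with them furthest below, and Ae. tauschii is brightest in every row by the rule.

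Next, the hexaploids were set against T. urartu and Ae. speltoides, the donor of the A genome and the relative of the B genome donor, in which the members were low. The rule put all 4 of these plants below Ae. tauschii without ordering them, though it limited how far any of them could rise, and the same arrays chose the members. A feature was called where limma's Benjamini-Hochberg adjusted p over all 56855 features was under 0.05 with a difference of 1 or more (log2). In the 2BS.2RL line 48 of the 98 members were higher than the mean of T. urartu and Ae. speltoides, against 8.95% of all features, and 3 were lower, against 5.16%. In hexaploid wheat 45 were higher, against 8.74%, and 3 lower, against 4.28%. Without replicate 1 of the 2BS.2RL line, the members called lower in it were 5. The median difference over the members was 1.13 in the 2BS.2RL line and 1.05 in hexaploid wheat, against -0.10 over all features in both.

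Both hexaploids were called higher for 43 members (7.82% of all features), 1 of them for 7 and neither for 48. In the 43 the medians were 10.50 in Ae. tauschii, 8.25 in the 2BS.2RL line, 8.24 in hexaploid wheat, 5.82 in T. urartu, 6.03 in Ae. speltoides and 6.28 in rye. Of the 43, 40 were above background on all 4 hexaploid arrays. In the 48 the medians were 10.85 in Ae. tauschii, 7.29 in the 2BS.2RL line, 7.26 in hexaploid wheat, 7.30 in T. urartu, 7.24 in Ae. speltoides and 7.45 in rye, with the medians of the 5 other plants close together.

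The size of these differences is uncertain, because low values carry it. T. urartu and Ae. speltoides were both at background in 29 of the 43, and 1 of them in 10 more. With all values under 7 set to 7 before the fit, 24 members were called higher in the 2BS.2RL line and 21 in hexaploid wheat. The random control was lower in the hexaploids than in T. urartu and Ae. speltoides, and its part in the calls was not tested. Called against T. urartu and against Ae. speltoides each, 30 members were higher in the 2BS.2RL line (5.01% of all features) and 34 in hexaploid wheat (4.88%).

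**Figure D3:**
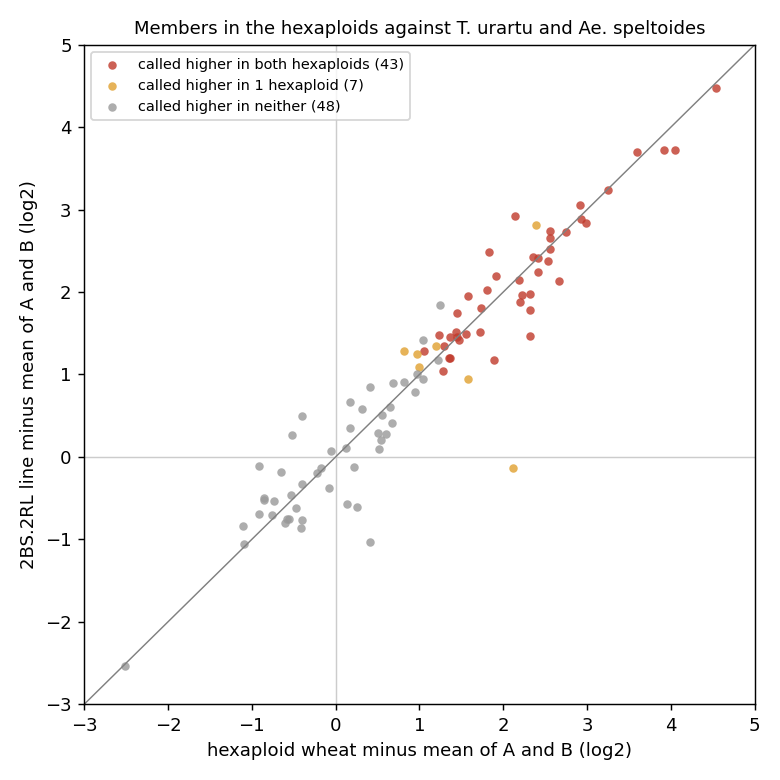
Difference of hexaploid wheat (x axis) and of the 2BS.2RL line (y axis) from the mean of T. urartu and Ae. speltoides for each of the 98 members (log2), coloured by whether limma called it higher in both hexaploids (43), in 1 (7) or in neither (48). The points follow the line of equal differences, and both axes share the same T. urartu and Ae. speltoides arrays, so they are not independent.

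Taestivum_ESTC002257 had the hexaploids furthest above T. urartu and Ae. speltoides. It read 10.72 and 10.73 in Ae. tauschii, 8.35 and 8.38 in the 2BS.2RL line and 8.16 and 8.71 in hexaploid wheat, against 3.72 and 3.99 in T. urartu and 4.34 and 3.53 in Ae. speltoides. Rye read 6.93 and 5.19. All 6 arrays of T. urartu, Ae. speltoides and rye lay at background, and all 4 hexaploid arrays above it. Hexaploid wheat was at least 2.72-fold above T. urartu and at least 2.24-fold above Ae. speltoides, and the 2BS.2RL line at least 2.59-fold and 2.12-fold. Without that lower limit, the fitted differences from their mean were 4.54 (log2, limma adjusted p = 5.9e-05) in hexaploid wheat and 4.47 (limma adjusted p = 6.27e-05) in the 2BS.2RL line. The p-values belong to these differences, which rest on values at background, and not to the folds.

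Taestivum_ESTC030781 had the same form, with 11.83 and 11.43 in Ae. tauschii, 8.93 and 8.86 in the 2BS.2RL line, 9.35 and 9.10 in hexaploid wheat, 4.89 and 4.78 in T. urartu, 5.56 and 5.45 in Ae. speltoides and 5.46 and 6.10 in rye. Hexaploid wheat was at least 4.71-fold above T. urartu and at least 3.87-fold above Ae. speltoides. The 2BS.2RL line was at least 3.75-fold and 3.08-fold above them. The p-values again belong to the fitted differences from their mean without that limit. These were 4.05 (log2, limma adjusted p = 1.13e-06) in hexaploid wheat and 3.72 (limma adjusted p = 1.6e-06) in the 2BS.2RL line. In both members the hexaploids stood apart from Ae. tauschii above and from the other diploids below, with no overlap of arrays. Both were picked for the largest difference of the hexaploids from T. urartu and Ae. speltoides, which their p-values also concern.

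The opposite order, with the hexaploid below the mean of T. urartu and Ae. speltoides by any margin, was found for 26 members in the 2BS.2RL line (58.6% of all features) and 24 in hexaploid wheat (59.5%). Called lower in both hexaploids were 2 members, against 2.95% of all features, and these are also the 2 with the lowest hexaploid levels relative to T. urartu and Ae. speltoides, by which they were picked. Taestivum_ESTC030687 read 11.59 and 11.89 in Ae. tauschii, 5.95 and 4.72 in the 2BS.2RL line and 5.81 and 4.92 in hexaploid wheat, against 9.17 and 9.03 in T. urartu and 6.86 and 6.46 in Ae. speltoides. Rye had 7.83 and 7.77. Here T. urartu came next after Ae. tauschii, and the hexaploids lay at background. Since they did, only a lower limit can be given: T. urartu was at least 6.12-fold above the 2BS.2RL line and at least 5.94-fold above hexaploid wheat. Without that limit, the fitted differences from the mean of T. urartu and Ae. speltoides were -2.54 and -2.51 (log2). The p-values (limma adjusted p = 0.000547 and 0.000635) belong to these differences and not to the folds. In Tmonococcum_ESTC004779, described above, T. urartu was at least 1.6-fold and Ae. speltoides at least 2.07-fold above the 2BS.2RL line, and at least 1.55-fold and 2.01-fold above hexaploid wheat. The fitted differences from their mean without that limit were -1.06 and -1.09 (log2, limma adjusted p = 0.000681 and 0.000619). The folds are of intensity and include background. T. urartu and Ae. speltoides lay close to their random controls (6.99 and 7.27), and the controls of the 2BS.2RL line and hexaploid wheat were lower (6.48 and 6.53). The part of background in these folds was not tested. The calls of Tmonococcum_ESTC004779 were lost with cyclic loess, with scaling to the random control, at a minimum difference of 2 (log2) and with values under 7 set to 7. Under the last the difference was -0.35 in each hexaploid. They were also lost without replicate 2 of the 2BS.2RL line in that line, and without replicate 1 of hexaploid wheat in hexaploid wheat.

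**Figure D4:**
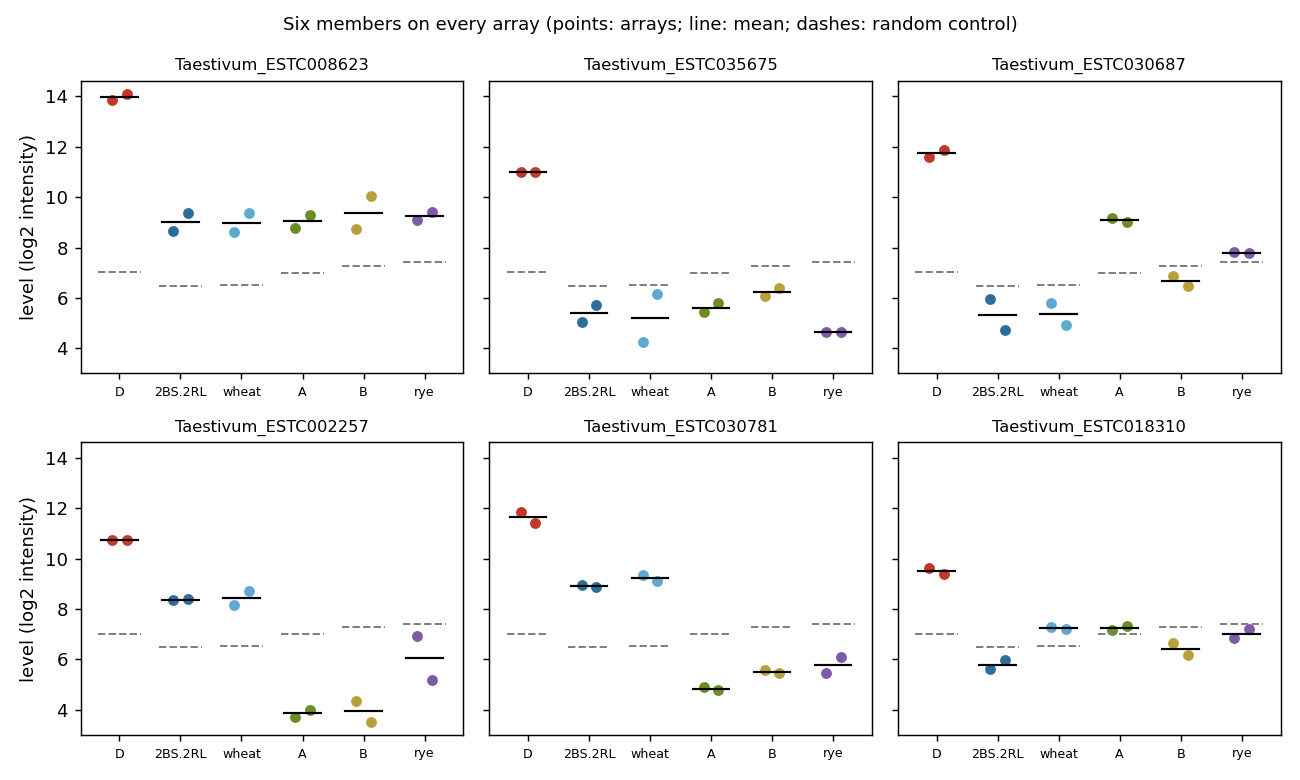
Levels of 6 members on every array (log2 intensity, points are single arrays, the solid line is the mean of 2, the dashed line the random control). Taestivum_ESTC008623 is above background in every plant, Taestivum_ESTC035675 at background outside Ae. tauschii, Taestivum_ESTC030687 has T. urartu at 9.17 and 9.03, Taestivum_ESTC002257 and Taestivum_ESTC030781 have the hexaploids in between, and Taestivum_ESTC018310 differs between the hexaploids.

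Calls between the hexaploids were few among the members, as they were over all features. In the 2BS.2RL line against hexaploid wheat, 0 of 98 members were called higher (limma, 0.331% of all features) and 1 lower (0.311%). At an unadjusted p under 0.05 there were 9 members in either direction, against 5.85% of all features. The median difference was -0.01, and 82 of the 98 members were within 0.5 of each other, against 92.2% of all features. Taestivum_ESTC018310 was the member called. It read 5.60 and 5.98, at background, in the 2BS.2RL line, against 7.27 and 7.20 in hexaploid wheat, at least 1.68-fold lower. The call rests on the fitted difference without that limit, -1.44 (log2, limma adjusted p = 0.0176), and not on this fold. In Ae. tauschii this member had 9.64 and 9.39, in T. urartu 7.18 and 7.32, in Ae. speltoides 6.63 and 6.16 and in rye 6.83 and 7.20. The call was lost when any 1 of the 4 hexaploid arrays was left out. Tmonococcum_ESTC004812, with the widest distance between the fitted values, read at background on both arrays of the 2BS.2RL line, at least 1.89-fold below hexaploid wheat. Its fitted difference of -2.26 (log2) did not pass (limma adjusted p = 0.403).

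Rye was called on both sides. Against the mean of T. urartu and Ae. speltoides, 14 members were called higher in rye (limma, 8.03% of all features) and 7 lower (10.3%), and the median difference was 0.14, against 0.10 over all features. The calls lower in rye fell to 2 without Ae. speltoides replicate 1 and to 2 without rye replicate 2. The highest of the 3 plants was rye in 41 members, Ae. speltoides in 42 and T. urartu in 15, and the shares of all features were not taken. On both arrays, 54 members lay at background in T. urartu, 57 in Ae. speltoides and 56 in rye. The random control was highest in rye of the 6 plants, at 7.41, against 7.27 in Ae. speltoides and 6.99 in T. urartu. Its part in this order and in the 14 higher calls was not tested.

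The lowest Ae. tauschii array exceeded the highest of the other 10 arrays in all 98 members (9.43% of all features), by at least 1.15. The rule set the Ae. tauschii mean at least 2 above every other mean on these same arrays. It thus nearly fixed this separation, which is a description only. The SD of the 2 Ae. tauschii arrays had a median of 0.13, the same as over all features. It was widest in Taestivum_ESTC037860, with 11.15 and 10.24 in Ae. tauschii, and next in Taestivum_ESTC034919, with 10.94 and 10.33.

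One array of Ae. tauschii weighed more than the other. Of the 98 members, 74 were higher on its replicate 1 than on its replicate 2, against 48.6% of all features, with a median difference of 0.16, against -0.01. Without Ae. tauschii replicate 1 the rule gave 85 features, 81 of them among the 98, and without replicate 2 it gave 146, 95 of them among the 98. Chosen on the replicate 1 arrays of all plants alone, 136 features met the rule. The replicate 2 arrays did not enter that choice, but all arrays share the scaling, so the recount is a description and no independent check. On the replicate 2 arrays, the distance of these features from Ae. tauschii to the next plant had a median of 2.01, against 2.34 where they were chosen. Ae. tauschii was the highest plant in 126 of the 136, and 68 met the whole rule again. Chosen on the replicate 2 arrays alone, 82 features met it, with a median of 2.45 on the replicate 1 arrays, Ae. tauschii the highest in 81, and 68 meeting the rule again.

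The threshold fell in a continuous range. Just inside it, Taestivum_ESTC023130 read 11.42 and 11.35 in Ae. tauschii against 9.26 and 9.50 in the next plant, the 2BS.2RL line. Tmonococcum_ESTC004812 had 9.26 and 9.54 in Ae. tauschii against 7.34 and 7.46 in hexaploid wheat. Just outside it, with gaps of 1.99, Taestivum_ESTC021487 had 10.10 and 9.65 in Ae. tauschii against 7.91 and 7.86 in hexaploid wheat. Taestivum_ESTC006686 had 9.55 and 9.32 against 7.45 and 7.45 in rye. No break separated the members from the features just outside. Of the features outside the members, the 2 with profiles most like the mean member were Taestivum_ESTC016632 (Pearson r = 0.986 over the 12 arrays) and Taestivum_ESTC030831 (r = 0.979). Their gaps were 1.38 and 1.63. The 12 arrays share the scaling and the plants, so these values are a description.

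Some members had profiles close to that of another member. Where each member was joined to any other within a root mean square distance of 0.5 over the 12 arrays, 42 members formed 12 chained groups and 56 stood alone. Members at the ends of a chain can differ by more than that limit. Whether the features of a group read the same transcript is not known without their sequences. The largest group held 9 members, with mean levels of 10.53 in Ae. tauschii, 8.10 in the 2BS.2RL line, 8.15 in hexaploid wheat, 7.03 in T. urartu, 7.19 in Ae. speltoides and 7.45 in rye. Within it the level ran from 5.81 to 7.85 in T. urartu, and both hexaploids were called higher in 4 of the 9. A group of 5 had means of 10.04, 7.71, 7.76, 4.92, 5.44 and 5.21 in the same order of plants, and both hexaploids were called higher in all 5. Another group of 5, from T. aestivum and T. monococcum sequences, had 11.84, 9.10, 9.17, 8.76, 8.99 and 8.98, and both hexaploids were called higher in 0 of them. With each chained group counted once, there were 68 groups and lone members. Of these, 32 were called higher in the 2BS.2RL line than the mean of T. urartu and Ae. speltoides, and 30 in hexaploid wheat.

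By the same rule, 246 features were high in Ae. tauschii and both hexaploids, so that Ae. tauschii alone made up 28.5% of the 344 features of both kinds. Only 4 were high in Ae. tauschii and hexaploid wheat and 1 in Ae. tauschii and the 2BS.2RL line. In the 246 the medians were 11.64 in Ae. tauschii, 10.97 in the 2BS.2RL line and 10.86 in hexaploid wheat, against 7.08 in T. urartu and 7.07 in Ae. speltoides. Against the linear mean of the 3 diploids Ae. tauschii, T. urartu and Ae. speltoides, the hexaploid levels of the 98 members lay below it, as the rule requires, by a median difference of -1.36 (log2) in the 2BS.2RL line and -1.25 in hexaploid wheat. In the 246, which the rule chose with both hexaploids above the gap, these were 0.70 and 0.65. The contrast with the 98 thus restates the rule and is no separate result.

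The rule was also applied to T. urartu and to Ae. speltoides, which is a relative of the B genome donor. It gave 168 features high in T. urartu alone and 230 in T. urartu and both hexaploids, and 124 in Ae. speltoides alone and 92 in Ae. speltoides and both hexaploids. The share high in the diploid alone was thus 42.2% for T. urartu and 57.4% for Ae. speltoides. Both hexaploids were called higher than the mean of the 2 other diploids in 54 of the 168 features of T. urartu (32.1%, against 7.52% of all features) and in 30 of the 124 of Ae. speltoides (24.2%, against 6.6%). For the 98 of Ae. tauschii this was 43.9%. The differences between these shares were not tested. Features of a set can read the same transcript, share the arrays and are not replicates of a plant.

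**Figure D5:**
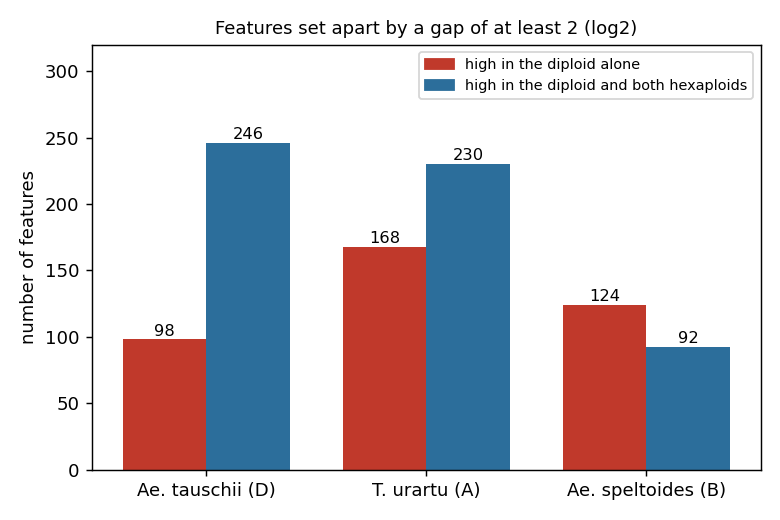
Number of features set apart by a gap of at least 2 (log2) that were high in 1 diploid alone (red) or in that diploid and both hexaploids (blue). The counts are 98 and 246 for Ae. tauschii, 168 and 230 for T. urartu and 124 and 92 for Ae. speltoides.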

How the data were processed

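The deposited table holds normalized intensity on a linear scale, which the authors obtained by RMA, per the submitters' processing notes. The RMA version and settings were not stated, and such scaling hides a change in total transcript. Array medians were 1587 to 1667, with precision limited by the number of arrays. The raw probe table has 12 value columns that match no label and were not used. Its rows gave the probes per feature. Log2 was taken without an offset or filter, leaving out 8 control features. Group means over the 12 arrays were modelled in limma 3.58.1 (R 4.3.3, with 6 residual and 2.97 prior degrees of freedom). A trial on simulated data gave each feature a single spread, without backgrounds that differ by plant. It therefore does not bear on calls that rest on values at background. Members, lists and tests were chosen with earlier results of these data known.

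Named features are those with the widest and narrowest gaps, just outside, brightest in Ae. tauschii, widest by ID prefix, with the largest and smallest difference between the hexaploids and T. urartu and Ae. speltoides, called between the hexaploids, with the most unequal Ae. tauschii arrays, and most like the mean profile. The slide of each array is unknown here and was not tested as a batch. Alternatives were the floor, gap, scaling, filter, fold, replicate block, variance model and leaving out arrays.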

Additional observations from a re-analysis of the deposited data

Results flagged for a closer look

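Taestivum_ESTC018310 differed between the hexaploids in its distance from T. urartu and Ae. speltoides, by -1.44 (log2, SE 0.21) in the 2BS.2RL line minus hexaploid wheat (limma adjusted p = 0.0176). With both arrays of the 2BS.2RL line at background, this value is no measured size.

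Control features for sGFP, which enter no comparison above, gave signal too: 4 of the 7 exceeded the random control on each of the 12 arrays.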

How the results depend on the processing

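The number of members depended on the threshold and the scaling. It was 18 at a gap of at least 3, 200 (the limit set) at 1.5, 64 with cyclic loess (59 of them among the 98) and 52 with arrays scaled to the random control (46 among the 98), and the cause was not tested. Leaving out 1 array gave 85 to 146. Of the 98 members, 18 were left to test without the dimmest 25% of features, since 80 are dim by their mean over 12 arrays. There, calls against the mean of T. urartu and Ae. speltoides were 5 higher and 0 lower in the 2BS.2RL line, 4 and 0 in hexaploid wheat and 5 and 0 in rye. With a minimum of 2 on the log2 difference they were 23 and 1, 25 and 1, and 2 and 0. With values under 7 set to 7 they were 24 and 1 in the 2BS.2RL line, 21 higher in hexaploid wheat, and 4 and 0 in rye. Calls lower were 1 in each hexaploid with cyclic loess and with scaling to the random control, which gave 64 and 65 higher in the 2BS.2RL line and hexaploid wheat; that scaling moved the median of all features to 0.55 and 0.50. Called against T. urartu and Ae. speltoides each, 30 were higher in the 2BS.2RL line. The single call between the hexaploids was lost (0) without the dimmest 25%, at a log2 difference of at least 2 and with values under 7 set to 7. Members at least 1 log2 above the random control were 58 in the 2BS.2RL line and 56 in hexaploid wheat, 17 in T. urartu, 10 in Ae. speltoides and 12 in rye. The matching shares of all features were not taken. Leaving out 1 array gave 40 to 50 higher and 2 to 5 lower in the 2BS.2RL line, 37 to 48 and 2 to 4 in hexaploid wheat, 11 to 16 and 2 to 7 in rye, and 0 to 1 lower and 0 higher between the hexaploids; the lone array is assumed to vary like the others. The counts of lower calls in rye fell to 2 without Ae. speltoides replicate 1 and without rye replicate 2. Same-numbered arrays are not said to be paired, and their deviations correlated at -0.06 to 0.21 over 15 pairs of plants. With the replicate block 49 members were higher in the 2BS.2RL line and 47 in hexaploid wheat, and no count moved by over 1.5 times. Single arrays left out aside, 87 recounts were made, of which 55 stayed within 1.5 times and 32 did not.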
